A study of Chlamydomonas reinhardtii with 28 samples.

Results

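Monomethylation of histone H3 at lysine 9 (H3K9me1) was mapped by chromatin immunoprecipitation and sequencing (ChIP-seq) in vegetative Chlamydomonas reinhardtii, a unicellular green alga. The data here are the stretches of H3K9me1 that wild-type (WT) cells carry away from the chromosome ends and that were still called, at least in part, in both of the study's mutants. A WT peak was a member when its midpoint lay more than 50 kb from both ends of chromosomes 1 to 17 and when at least 1 bp of it was overlapped by an H3K9me1 peak of dnmt1 and by an H3K9me1 peak of set3 of the same strain. In mating type plus (mt+) 171 of 3384 interior WT peaks met this rule, which is 5.05%. In mating type minus (mt-) 339 of 3697 did, which is 9.17%. The WT lists hold 3831 and 4113 peaks in all, and the 18 peak lists of the series hold 152930. The members were chosen by the H3K9me1 peaks of all 3 genotypes of a strain, so these counts and every H3K9me1 value within the own strain describe that choice and test nothing. For reference, a dnmt1 peak overlapped 7.80% of the interior WT peaks of mt+ and 14.2% of those of mt-, and a set3 peak 12.5% and 16.9%.

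The mt+ strain is CC-5155 and the mt- strain is CC-5325. In each strain the study profiled WT cells, cells with the DNA methyltransferase DNMT1 knocked out (dnmt1) and cells with SET3 knocked out (set3). All cells were vegetative and grown in TAP medium, and chromatin was fixed with formaldehyde and sheared by sonication. H3K9me1 was mapped in all 3 genotypes. The other marks, which are H3K4me1, H3K4me3 and H3K9me3, were mapped in WT and dnmt1 only, and each mark, genotype and strain has 1 library. How many clones stand behind each knockout is not given in the labels, and there are no replicate libraries within a strain. The strains give 2 pairs of genotypes, for which an exact paired permutation test cannot go below a two-sided p of 0.5, so differences between genotypes are described and not tested.

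In Chlamydomonas, H3K9me1 is a mark of silenced chromatin, and SET3 is a SET-domain protein known for monomethylating H3K9 at silenced transgene arrays. DNMT1-type enzymes copy cytosine methylation onto the new DNA strand after replication. H3K4me3 marks the start sites of transcribed genes in algae as in other eukaryotes, and H3K9me3 is best known from animals and fungi as a mark of heterochromatin. No genome sequence or annotation of the build of these files was used here, so loci are given by their coordinates in the deposited files, counted from 1, and not by gene. The sources used here do not give the build.

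The libraries differed in ways that bear on the rule. The H3K9me1 lists of dnmt1 hold 1248 peaks in mt+ and 2716 in mt-, and those of set3 hold 2785 and 6160. The mt- mutant lists are therefore the longer ones for both genotypes, and a longer list overlaps more WT peaks. Read counts were not used here, but the local background used by the peak caller could be recovered from the fold and p-value at each summit. The working background of an H3K9me1 list was taken as the 1st percentile of the backgrounds recovered at its summits. In scaled pileup for mt+ and then mt-, it was 29.7 and 32.0 in WT, 19.2 and 20.8 in set3, and 18.9 and 34.2 in dnmt1. The part of these depth differences in the counts of kept peaks was not tested.

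Members were wide peaks. Their median width was 5.97 kb in mt+, from 0.265 to 115 kb, and 4.69 kb in mt-, from 0.261 to 98.1 kb. Interior WT peaks lost from both mutants numbered 2868 in mt+, which is 84.8%, and 2888 in mt-, which is 78.1%. They had median widths of 0.634 and 0.598 kb. A wide peak has more bases in which a mutant peak can fall, so the rule favours width by its construction. Among interior WT peaks under 1 kb, 0.808% in mt+ and 2.47% in mt- were members. Between 1 and 5 kb the shares were 4.89% and 10.9%, and at 5 kb or more they were 43.3% and 61.0%. Members made up few of the peaks but 31.0% of the interior WT H3K9me1 length in mt+, 2.02 of 6.53 Mb, and 39.6% in mt-, 2.74 of 6.92 Mb.

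WT enrichment at the members was also high. The authors' summit fold had a median of 4.50 in mt+ members against 2.55 in lost peaks, and of 3.79 against 2.4 in mt-. Within peaks of 5 kb or more the medians were 4.91 against 4.51 in mt+ and 4.35 against 3.66 in mt-. Below 1 kb the order turned, with 2.01 in members against 2.33 in lost peaks of mt+ and 2.07 against 2.23 in mt-. The members with the highest WT folds were a peak on chromosome 5 from 1644560 to 1662610 in mt+, at 6.84, and its mt- counterpart from 1644609 to 1662613, at 6.17. Of that mt+ peak, 9.05% of the length was covered in dnmt1 and 5.47% in set3. In mt- these shares were 12.9% and 11.2%. The most enriched member of each strain was thus kept through short remnants. The next in mt+ were on chromosome 12 from 6733732, at 6.65, and on chromosome 15 from 2676771 and from 2752983, at 6.62 and 6.61. In mt- they were on chromosome 14 from 3606223 and from 1651195, both at 5.93, and on chromosome 15 from 1971946, at 5.83. These 6 peaks varied widely in what was kept, from 2.76% to 65.0% of their length in dnmt1 and from 23.6% to 80.3% in set3.

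Local background at the summit, which can follow copy number or mappability, was somewhat higher at members. Its median was 40.0 in mt+ members and 34 in lost peaks, a ratio of 1.18, and 43.0 and 36.0 in mt-, a ratio of 1.19. The share of summits above 2 times the working background of the list was 17% in mt+ members and 7.12% in lost peaks, and 15% and 8.04% in mt-. Interior WT peaks kept in dnmt1 but not in set3 were higher still, with medians of 53.5 in mt+ and 48.5 in mt- and shares of 46.7% and 22.6%. The part of the background in the retention of members was not tested.

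Most of the H3K9me1 length of the members was not called in the mutants. In mt+, dnmt1 peaks covered 13.7% of the member length, set3 peaks 19.9%, both lists together on the same bases 7.07%, and neither list 73.4%. In mt-, dnmt1 covered 26.2%, set3 22.9%, both 13.3%, and neither 64.1%. Kept therefore means, for the greater number of members, that fragments of a WT domain were still called. The median member had 12.7% of its length covered in dnmt1 and 27.0% in set3 in mt+, and 25.3% and 30.2% in mt-. Members covered over at least 50% of their length in both mutants numbered 20 of 171 in mt+ and 57 of 339 in mt-. At the other end, 19 members in mt+ and 23 in mt- had under 10% of their length covered in each mutant.

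**Figure D1:**
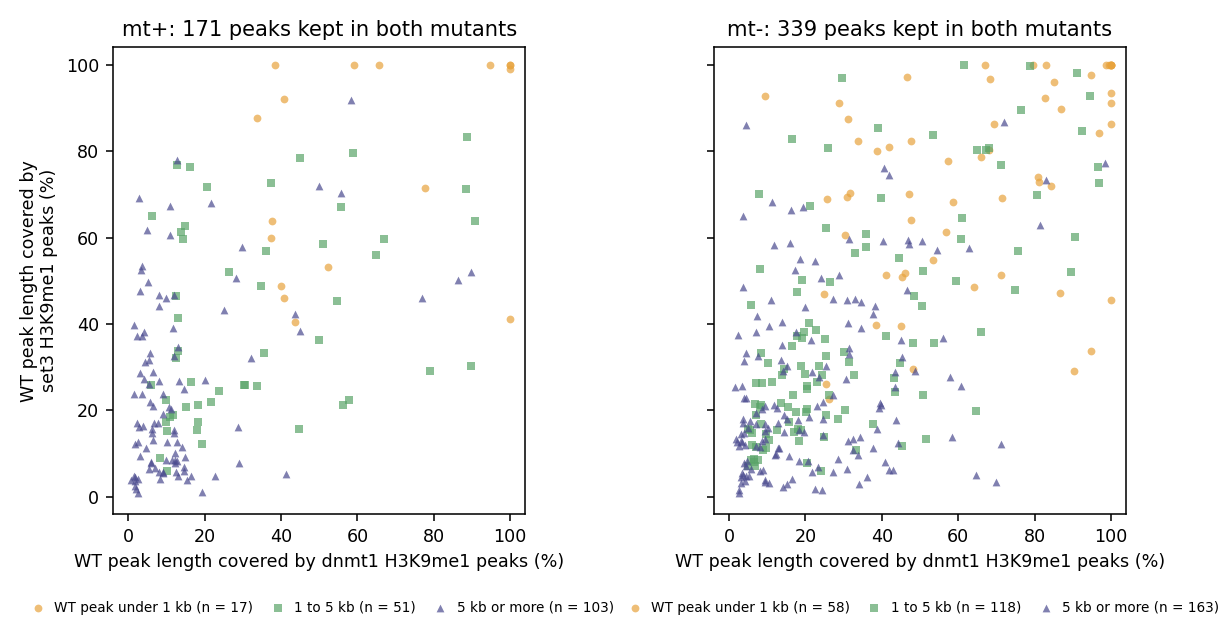
Each point is a WT H3K9me1 peak kept in both mutants, placed by the percent of its length covered by dnmt1 peaks (x axis) and by set3 peaks (y axis) of its strain, with symbols for the width of the WT peak. Peaks of 5 kb or more crowd near the lower left corner, where little of the length is covered in either mutant, and most points near the upper right corner are narrower.

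The remnants were small peaks. In mt+, 428 of the 884 interior dnmt1 peaks touched a member, which is 48.4%, and in mt- 968 of 2431 did, which is 39.8%. Of the interior set3 peaks, 516 of 2416 touched a member in mt+ and 823 of 5768 in mt-. Their median width was 0.456 kb in dnmt1 and 0.557 kb in set3 of mt+, and 0.453 and 0.551 kb in mt-. A single member was broken into up to 21 dnmt1 peaks in mt+ and 32 in mt-, and into up to 15 and 19 set3 peaks. The median fold of these remnants was 2.29 in dnmt1 and 2.33 in set3 of mt+, and 1.94 and 2.24 in mt-, below the medians of the WT members. Folds come from lists of unequal depth, so this last difference is a description of the lists.

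The share of length that was covered fell with the width of the WT peak. In dnmt1 of mt+ it was 54.4% in members under 1 kb, 28.0% at 1 to 5 kb and 12.4% at 5 kb or more. In dnmt1 of mt- the same classes gave 59.8%, 30.1% and 25.2%. In set3 they gave 71.0%, 38.2% and 18.3% in mt+, and 68.6%, 35.6% and 20.5% in mt-. A narrow peak can only be a member if a mutant peak, itself short, lands on it, so part of this order follows from the rule.

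Within members of 5 kb or more, remnants were found along the whole peak. Each such member was divided into 5 parts of equal length. In mt+ dnmt1 peaks covered 11.2% of the 2 outermost parts, 13.5% of the 2 parts next to them and 12.8% of the middle part, and set3 peaks covered 16.5%, 19.7% and 19.3%. In mt- the dnmt1 shares were 22.0%, 26.0% and 29.9%, and the set3 shares were 19.5%, 21.5% and 20.2%. The outermost parts had the lowest share in all 4 mutant lists, by the least in set3 of mt-.

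The remnants of the 2 mutants often lay on the same bases. Of the member length covered in dnmt1, 51.6% in mt+ and 50.6% in mt- was also covered in set3, whereas set3 covered 19.9% and 22.9% of all member length. Of the length covered in set3, 35.4% in mt+ and 57.9% in mt- was covered in dnmt1. Every member had to be overlapped in both mutants, and narrow members were covered over much of their length in each. Part of this sharing therefore follows from the rule, and the share of all member length is not a level set by chance. Even so, 17 members in mt+ and 24 in mt- had no base that was covered in both mutants. The WT summit lay inside a dnmt1 peak in 85 members of mt+ and 231 of mt-, and inside a set3 peak in 108 and 234. It lay inside peaks of both mutants in 65 members of mt+, which is 38.0%, and in 179 of mt-, which is 52.8%.

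At the edge of the rule, members and near misses differed by few bases. In mt+ the smallest overlaps belonged to a 0.265 kb peak on chromosome 3 from 3730118, with 109 bp covered in set3, and to a 0.462 kb peak on chromosome 9 from 329305, with 178 bp covered in dnmt1. In mt- they were 69 bp in dnmt1 at chromosome 12 from 8940871 and 132 bp in dnmt1 at chromosome 16 from 4289270. Just outside, an mt+ peak on chromosome 5 from 1250777 was overlapped in dnmt1 but lay 9 bp from a set3 peak, and an mt- peak on chromosome 15 from 3438810 was overlapped in set3 but lay 13 bp from a dnmt1 peak. Peaks that missed the rule by gaps within 500 bp numbered 11 in mt+ and 36 in mt-. Members that rested on an overlap under 100 bp numbered 0 in mt+ and 1 in mt-.

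The libraries of the other strain were not used to choose the members of a strain, and they carry the same comparison. Of the 171 mt+ members, 147 were overlapped by both mutant lists of mt-, which is 86.0% (95% Wilson interval 79.97 to 90.4), against 9.99% of all interior mt+ WT peaks. Of the lost mt+ peaks, 68 of 2868 were, which is 2.37% (1.87 to 2.99). The difference was 83.6 percentage points (95% Newcombe interval 77.6 to 88.0). Of the 339 mt- members, 154 were overlapped by both mutant lists of mt+, which is 45.4% (40.2 to 50.7), against 4.73% of all interior mt- WT peaks. Of the lost mt- peaks, 4 of 2888 were, which is 0.139%, and the difference was 45.3 points (40.1 to 50.6), which fell to 25.1 points when overlap was judged at the WT summit. Members recurred far more often than lost peaks in both directions, by differences whose intervals lie well away from 0. The intervals cover counting error only, and neighbouring peaks are not independent.

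Single mutants gave the same order. Among mt+ members, WT of mt- overlapped 166, dnmt1 of mt- 153 and set3 of mt- 160, beside 81.0%, 15.4% and 17.6% of all interior mt+ WT peaks. Among mt- members, WT of mt+ overlapped 328, dnmt1 of mt+ 176 and set3 of mt+ 247, beside 73.4%, 7.33% and 10.8% of all interior mt- WT peaks. The list with the fewest H3K9me1 peaks, dnmt1 mt+, thus left the most members unmatched. The part of its length in that count was not tested.

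The recurrence was also seen in each width class. In peaks of 5 kb or more, 97 of 103 mt+ members were overlapped by both mutants of mt-, against 13 of 70 lost peaks. At 1 to 5 kb the counts were 40 of 51 against 32 of 840, and under 1 kb they were 10 of 17 against 23 of 1958. For mt- members the counts in mt+ were 98 of 163 against 0 of 54 at 5 kb or more, where a count of 0, taken as at most 3 counts, allows a share of up to 5.56% and the upper Wilson limit is 6.64%. They were 42 of 118 against 3 of 776 at 1 to 5 kb, and 14 of 58 against 1 of 2058 under 1 kb. In each class the share was higher for members than for lost peaks. The classes do not equalise width, and a wider peak can meet more peaks of the other strain. At 5 kb or more the median widths in mt+ were 12.2 kb in members and 6.17 kb in lost peaks. In mt- they were 9.19 and 5.84 kb. Members were also the wider peaks at 1 to 5 kb in both strains and under 1 kb in mt-. Under 1 kb in mt+ the medians were 0.462 kb in members and 0.472 kb in lost peaks. The part of the remaining width difference in the recurrence was not tested.

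**Figure D2:**
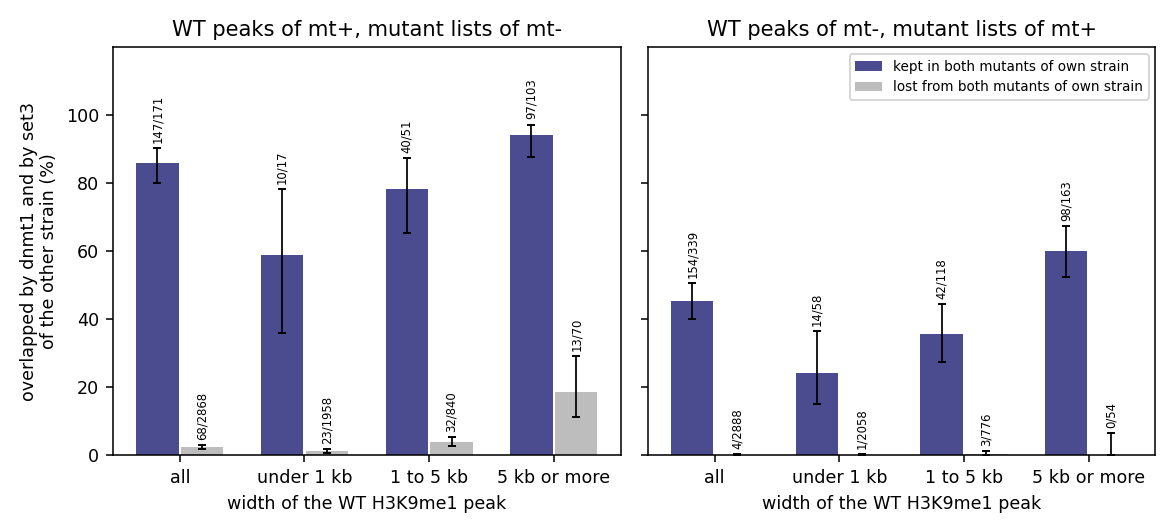
Bars give the percent of interior WT H3K9me1 peaks of a strain that were overlapped by both mutant lists of the other strain, for peaks kept in both mutants and peaks lost from both mutants of their own strain, by WT peak width; error bars are 95% Wilson intervals and the counts stand above the bars. Kept peaks stand above lost peaks in every width class of both strains, from 10 of 17 against 23 of 1958 to 97 of 103 against 13 of 70 in mt+. The classes do not equalise width, and by median the kept peaks were the wider ones in all but the class under 1 kb of mt+.

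The recurrence reached down to the bases. Of the member bases of mt+ that were covered in its own dnmt1 list, 87.6% were covered in dnmt1 of mt-, against 20.9% of the member bases that were not. In the reverse direction, 36.1% of the dnmt1-covered member bases of mt- were covered in dnmt1 of mt+, against 1.49% of the others. For set3 the values were 77.8% against 10.2% from mt+ to mt-, and 58.3% against 4.66% from mt- to mt+. Covered bases of one strain were thus covered more often in the other, in both mutants. Longer lists cover more bases, which sets the level that each of these shares can reach.

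Joined over gaps of up to 5 kb, the 510 members of both strains formed 219 loci over 3.11 Mb. Of these, 91 loci held members of both strains, with a median width of 10.2 kb and 2.4 Mb in all, and they contained 364 members, which is 71.4%. Another 14 loci held mt+ members only and 114 held mt- members only, and the median width of these loci of 1 strain was 3.30 kb. A single member made up 114 loci, while 24 loci with 5 or more members contained 198. At the 114 loci with mt- members only, the mt+ lists had H3K9me1 in WT at 105, in set3 at 59, in dnmt1 at 14 and in both mutants at 2. At most of these loci WT mt+ therefore carried the mark, and dnmt1 mt+ was the list that most often lacked it. At the 14 loci with mt+ members only, the mt- lists had it in WT at 10, in dnmt1 at 4, in set3 at 9 and in both mutants at 1.

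A few loci were covered over at least 50% of their length in all 4 mutant lists. The locus on chromosome 6 from 7255943 to 7261481 was covered over 57.0% in dnmt1 mt+, 71.9% in dnmt1 mt-, 89.8% in set3 mt+ and 86.7% in set3 mt-. A locus on chromosome 15 from 5813204 to 5817814 was covered over 50.9%, 96.6%, 58.4% and 72.4% in the same order. A locus of 1.08 kb on chromosome 16 from 5347454 to 5348531 was covered over 88.8%, 100%, 83.4% and 97.4%. The fourth, on chromosome 15 from 155737 to 156156, was 0.42 kb wide and had no WT peak in mt-, although both mt- mutants did. The widest of the 4 was 5.54 kb, and among the 91 loci shared by the strains 16 were covered over at least 20% in all 4 lists.

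Members lay on all 17 chromosomes. Their share of the interior WT peaks was highest on chromosome 13 in both strains, at 8.33% in mt+, with an interval of 4.72 to 14.3, and 17% in mt-, with one of 11.8 to 23.9. The mt+ interval includes the 5.05% of the whole strain, and a single locus, described with the named loci, supplied 7 of the 11 members of chromosome 13 in mt+ and 11 of the 25 in mt-. Chromosome 15 held 28 members in mt+ and 49 in mt-, which are 4.54% and 7.78% of its interior WT peaks. Chromosome 6 held 12 and 32, which are 5.04% and 9.55%, and its first 1 Mb held 1 of 27 interior peaks in mt+ and 8 of 79 in mt-. The median distance of a member from the nearer end was 1.83 Mb in mt+ and 1.65 Mb in mt-, beside 1.6 and 1.59 Mb for lost peaks.

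The other marks were not used by the rule. H3K4me3 was found at members more often than at lost peaks, and on more of their length in dnmt1 than in WT. Members were the wider peaks, and a wider peak can meet more peaks of another mark. In mt+, WT H3K4me3 overlapped 88 of 171 members, which is 51.5%, against 7.32% of lost peaks and 11.1% of all interior peaks. H3K4me3 of dnmt1 overlapped 108 members, which is 63.2%, against 9.73% of lost peaks and 14.3% of all, a difference from lost peaks of 53.4 points (45.9 to 60.4). In mt-, WT H3K4me3 overlapped 157 of 339 members, which is 46.3%, against 8.48% of lost peaks and 12.9% of all. H3K4me3 of dnmt1 overlapped 172, which is 50.7%, against 8.55% and 13.6%, a difference from lost peaks of 42.2 points (36.8 to 47.6). Among WT peaks under 5 kb these differences were smaller, at 20.4 points in mt+ and 16.5 in mt-. When members had to be covered over at least 50% in each mutant, they were 10.8 points (-3.06 to 32.7) in mt+ and 7.87 points (-0.786 to 20.2) in mt-, and both intervals include 0.

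By length the change between genotypes was plainer. H3K4me3 peaks covered 1.68% of the member length in WT mt+ and 6.57% in dnmt1 mt+. In mt- they covered 2.03% in WT and 5.11% in dnmt1. On lost peaks they covered 1.39% and 2.13% in mt+, and 1.59% and 1.73% in mt-. By length, members and lost peaks were thus much closer in WT than by the share of peaks overlapped. The H3K4me3 length was greater in dnmt1 than in WT at 100 members and smaller at 7 in mt+, and greater at 117 and smaller at 63 in mt-. Among lost peaks it was greater at 226 and smaller at 42 in mt+, and greater at 110 and smaller at 139 in mt-, so in mt+ the mark was more often longer in dnmt1 off the members too. Each of these values rests on 1 library per genotype, and the H3K4me3 lists themselves were of similar length, from 15256 to 15674 peaks.

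H3K9me3 showed the same order. In mt+ it overlapped 58 members in WT, which is 33.9%, against 4.29% of lost peaks and 6.91% of all. In dnmt1 it overlapped 85, which is 49.7%, against 4.81% and 8.87%, a difference from lost peaks of 44.9 points (37.4 to 52.3). In mt- it overlapped 106 members in WT, which is 31.3%, against 4.36% and 7.44%, and 141 in dnmt1, which is 41.6%, against 4.67% and 8.95%, a difference of 36.9 points (31.7 to 42.3). For WT peaks under 5 kb the differences were 13.3 points in mt+ and 12.5 in mt-, and for members covered over at least 50% they were 21.6 (6.07 to 43.5) and 14.6 (5.55 to 27.0). Of member length it covered 0.973% in WT and 4.09% in dnmt1 of mt+, and 1.01% and 4.43% in mt-. On lost peaks it covered 0.890% and 1.25% in mt+, and 0.883% and 1.02% in mt-. By length the WT shares of members and lost peaks were thus close for this mark too.

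Members overlapped by H3K9me3 in dnmt1 and by none in WT numbered 31 in mt+ and 53 in mt-, which are 18.1% and 15.6%. A member with any WT H3K9me3 was not counted, even where dnmt1 had further peaks in it. Of the lost peaks, 35 and 33 met this condition, which are 1.22% and 1.14%. The like counts for H3K4me3 were 20 and 23 members, 11.7% and 6.78%, against 75 and 29 lost peaks, 2.62% and 1.00%. Wide peaks can meet more peaks of any mark. At 5 kb or more, 26 of 103 members and 4 of 70 lost peaks of mt+ had H3K9me3 in dnmt1 only, a difference of 19.5 points (8.58 to 29.3). In mt- 39 of 163 and 1 of 54 did, a difference of 22.1 points (12.2 to 29.3). For H3K4me3 in that class the differences were 9.82 points (-0.0898 to 18.7) and 6.73 points (-2.89 to 13), with intervals that include 0. Peaks with H3K4me3 in WT could not meet this condition. In that class they were 72 of 103 members and 25 of 70 lost peaks in mt+. In mt- they were 117 of 163 and 19 of 54. These intervals, taken over all peaks of the class, therefore do not show how often peaks without WT H3K4me3 gained it. The gains in that class were 16 members and 4 lost peaks in mt+, and 17 and 2 in mt-. Set against the peaks of the class without WT H3K4me3, the share with a gain was higher for members in both strains. At 1 to 5 kb the differences over all peaks were 4.15 points (-0.829 to 14.9) in mt+ and 2.82 points (0.166 to 8.16) in mt-. Among peaks of all widths without WT H3K4me3, dnmt1 had it at 24.1% of members and 2.82% of lost peaks in mt+. In mt- the shares were 12.6% and 1.097%. These last shares pool all widths. Counting every dnmt1 peak, whether or not WT had one, gave larger shares. At 5 kb or more, H3K9me3 of dnmt1 overlapped 70.9% of members and 24.3% of lost peaks in mt+, and 68.1% and 13% in mt-. H3K4me3 of dnmt1 overlapped 85.4% and 40.0% in mt+, and 79.1% and 38.9% in mt-. Members of this class were still the wider peaks, with medians of 12.2 kb against 6.17 kb for lost peaks in mt+ and 9.19 kb against 5.84 kb in mt-. Below 1 kb the intervals of the differences in these overlaps included 0 for H3K4me3 and H3K9me3 in both genotypes and strains, with 17 members in mt+ and 58 in mt-.

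H3K4me1 could not be read between genotypes. Its lists hold 2067 peaks in WT mt+, 12718 in dnmt1 mt+, 5151 in WT mt- and 1104 in dnmt1 mt-. It overlapped 28 members in WT and 65 in dnmt1 of mt+, and 60 and 24 in mt-, beside 3.63%, 9.87%, 5.25% and 1.41% of all interior peaks. The numbers rise and fall with the lengths of the lists.

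Within the members, H3K4me3 of dnmt1 lay on the bases with no H3K9me1 peak called in dnmt1 and hardly on those with one. In mt+ it covered 0.220% of the member bases covered by H3K9me1 in dnmt1 and 7.58% of the others. In mt- the shares were 0.166% and 6.87%. WT H3K4me3 was already divided in the same way, with 0% against 1.94% in mt+ and 0.0096% against 2.75% in mt-. Splitting the bases by H3K9me1 in set3 in place of dnmt1 gave 0.488% against 8.08% for H3K4me3 of dnmt1 in mt+, and 0.366% against 6.53% in mt-. The bases where H3K4me3 was called in WT or dnmt1 were thus mostly without H3K9me1 in either mutant.

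**Figure D3:**
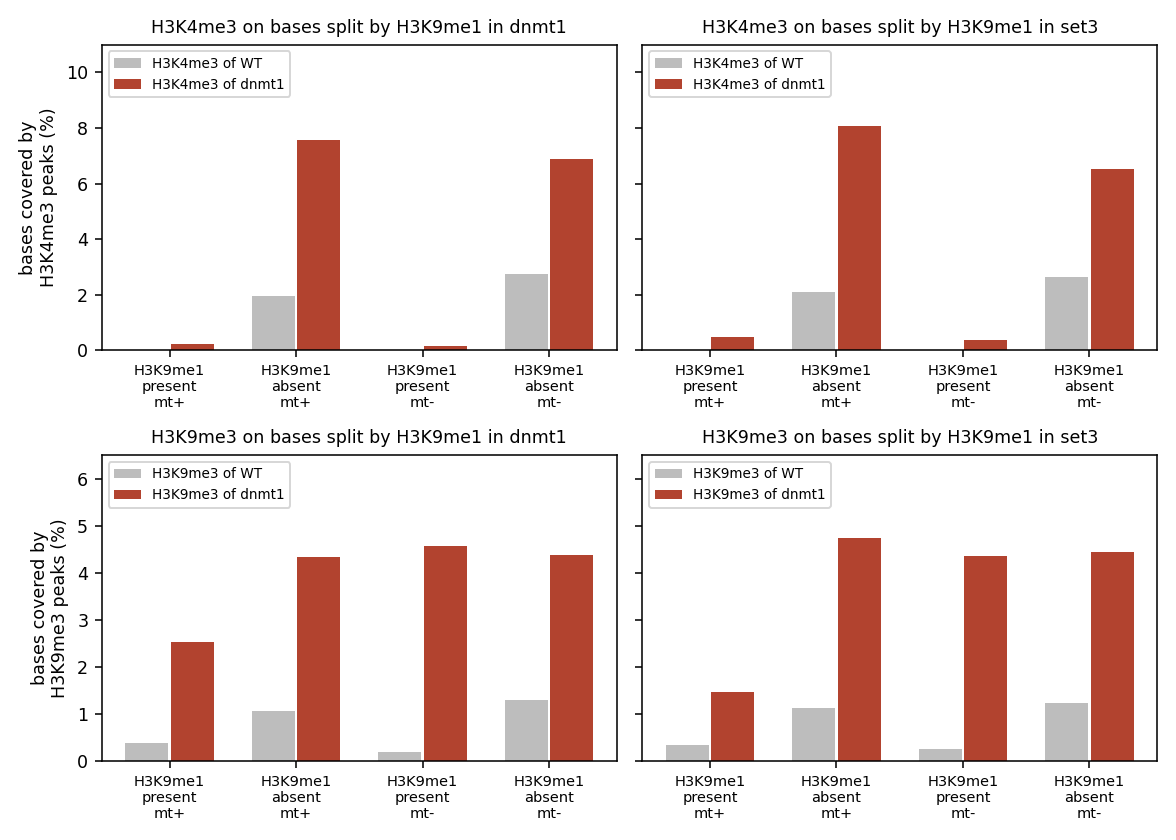
Bars give the percent of member bases covered by H3K4me3 peaks (top) or H3K9me3 peaks (bottom) of WT and dnmt1, after the bases were split by whether an H3K9me1 peak of dnmt1 (left) or set3 (right) of the strain covered them; each bar is 1 library and has no error bar. H3K4me3 of dnmt1 covers under 1% of the bases with H3K9me1 and 6.53 to 8.08% of the bases without it, while H3K9me3 of dnmt1 in mt-, split by H3K9me1 in dnmt1, covers 4.57% and 4.38%, which without chromosome 13 are 1.32% and 4.39%.

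H3K9me3 of dnmt1 covered 2.53% of the member bases with H3K9me1 in dnmt1 and 4.34% of the others in mt+, and 4.57% and 4.38% in mt-. Without chromosome 13 the shares were 2.11% and 4.20% in mt+ and 1.32% and 4.39% in mt-, so that in both strains less of it lay on the bases with H3K9me1. Where no H3K9me1 peak was called in dnmt1, H3K9me3 lay almost wholly inside H3K4me3 peaks. Only 5.17% of its length in mt+ and 6.54% in mt- lacked them. On bases with H3K9me1 the order was the opposite, and 94.5% of its length in mt+ and 97.5% in mt- lacked H3K4me3. The H3K9me3 length without H3K4me3 was 6.63 kb on bases with H3K9me1 and 3.92 kb on the others in mt+. In mt- it was 31.9 kb and 5.78 kb, which without chromosome 13 became 7.96 kb and 4.64 kb. Bases with H3K9me1 thus held 62.9% of it in mt+ and 84.7% in mt-, although they made up 13.7% and 26.2% of the member length. Without chromosome 13 the shares were 55.2% and 63.2%. Split by H3K9me1 in set3, this length was 5.07 kb on bases with it and 5.48 kb on the others in mt+, and 26.4 and 11.4 kb in mt-. With chromosome 13 left out, it was 3.075 and 5.358 kb in mt+ and 3.679 and 8.921 kb in mt-, so more lay on bases without H3K9me1 in set3. Bases with H3K9me1 in set3 made up 19.9% and 22.9% of all member length. By the labels, H3K9me3, H3K4me3 and H3K4me1 had 1 input in common within a strain and genotype, and its part in the coincidence of H3K9me3 with H3K4me3 was not tested.

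At 49 of the 91 loci with members of both strains, H3K9me3 was present in dnmt1 of both strains, and at 42 it was present in WT of both. Its length was greater in dnmt1 than in WT in both strains at 34 loci and smaller in both at 8. H3K4me3 was longer in dnmt1 in both strains at 39 loci and shorter in both at 1. At 28 loci no list had H3K4me3, and at 25 none had H3K4me3 or H3K9me3. Members therefore included a group of loci with no called peak of either mark in WT or in dnmt1. Narrow loci can meet fewer peaks of any mark, and the part of width in this group was not tested.

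The locus on chromosome 13 from 4368905 to 4416730 was 47.8 kb wide, with 7 members in mt+ and 11 in mt-. Among the loci named for H3K9me1 length, H3K9me3 in dnmt1 or number of members, it had the highest H3K9me1 coverage in dnmt1 of both strains. H3K9me1 covered 75.5% of it in dnmt1 mt+, 72.5% in dnmt1 mt-, 43.3% in set3 mt+ and 61.0% in set3 mt-. H3K9me3 was at 0 in WT of both strains. In dnmt1 it covered 1.98 kb in 6 peaks in mt+ and 24.5 kb in 34 peaks in mt-, with highest folds of 1.64 and 2.39. No H3K4me3 peak lay there in any list. The local background at its WT H3K9me1 summits had a median of 151 in mt+ and 161 in mt-, beside 35 and 38 over the whole lists, so this locus had a far higher local background than most peaks, and its part in these calls was not tested. The H3K9me3 length differed between the mutants of the strains by more than at any other named locus.

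**Figure D4:**
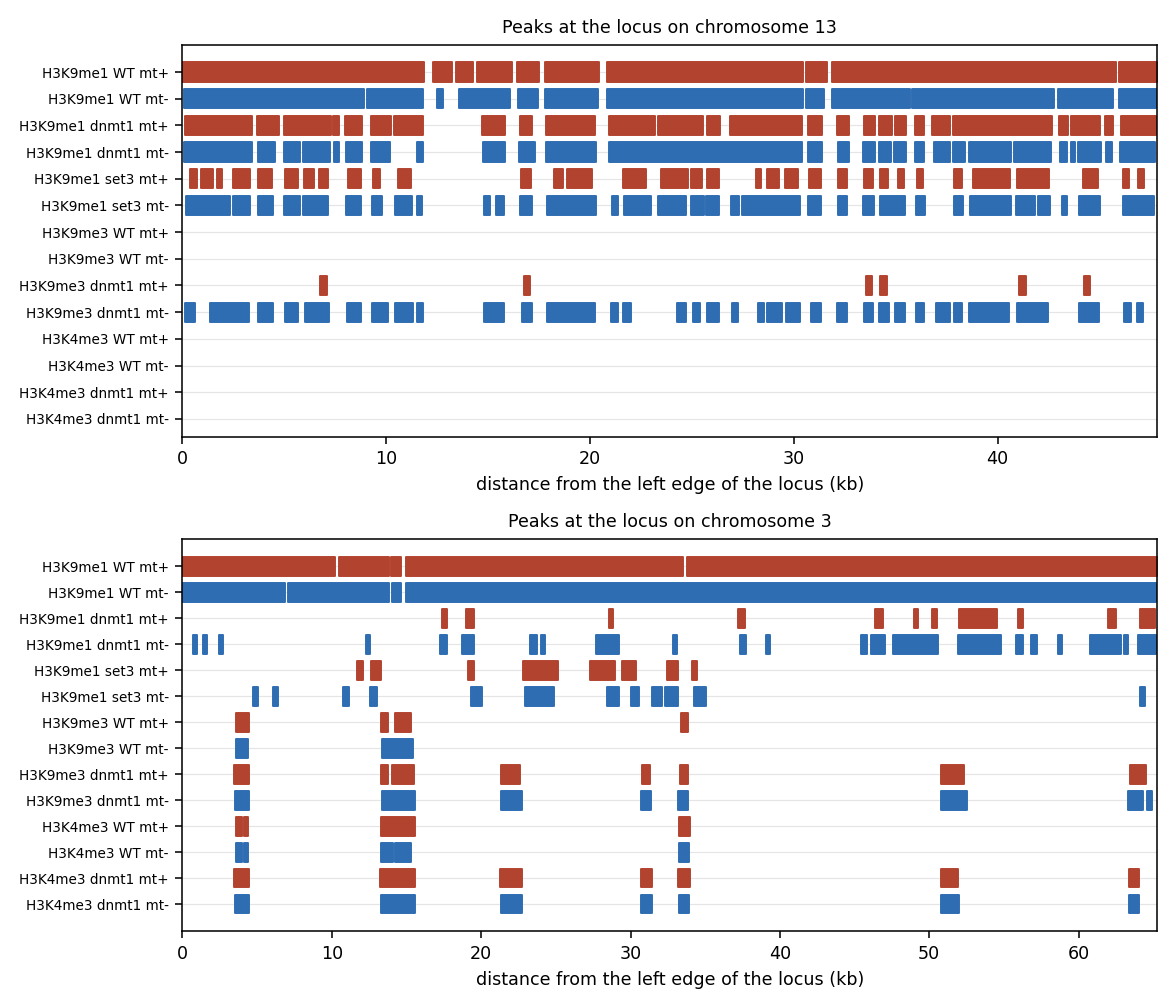
Peaks of each list are drawn as bars along the member loci on chromosome 13 (top) and chromosome 3 (bottom), with the distance from the left edge of the locus in kb on the x axis, red for mt+ and blue for mt-. At the chromosome 13 locus H3K9me1 covers 43.3 to 75.5% in the 4 mutant lists and no list has H3K4me3, and at the chromosome 3 locus short H3K9me1 remnants lie beside H3K4me3 and H3K9me3 peaks that are longer in dnmt1 than in WT.

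The locus on chromosome 3 from 6957374 to 7022628 had less H3K9me1 coverage in all 4 mutant lists than the chromosome 13 locus. H3K9me1 covered 11% of it in dnmt1 mt+, 26.6% in dnmt1 mt-, 11.5% in set3 mt+ and 12.6% in set3 mt-. H3K4me3 covered 3.69 kb in WT mt+ and 8.12 kb in dnmt1 mt+, and 3.18 and 8.0 kb in mt-. H3K9me3 covered 2.80 and 7.89 kb in mt+, and 2.89 and 8.84 kb in mt-. Both marks were longer in dnmt1 in each strain, and the added peaks lay at like places in mt+ and mt-. On chromosome 1, the locus from 1060464 to 1131997 went from 1.86 to 7.15 kb of H3K4me3 and from 1.14 to 3.90 kb of H3K9me3 in mt+, and from 3.03 to 6.78 kb and 1.34 to 4.27 kb in mt-. On chromosome 7, the locus from 3091878 to 3152650 went from 1.04 to 6.52 kb and 0.713 to 4.69 kb in mt+, and from 1.31 to 6.16 kb and 0.429 to 5.07 kb in mt-.

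The widest member locus lay on chromosome 17 from 6127166 to 6327107 and held 6 members in mt+ and 17 in mt-. H3K9me1 covered 7.67% of it in dnmt1 mt+, 18.1% in dnmt1 mt-, 14.5% in set3 mt+ and 19.3% in set3 mt-. H3K4me3 covered 14.9 kb in WT and 22.2 kb in dnmt1 of mt+, and 16 and 20.7 kb in mt-. H3K9me3 covered 9.70 and 15.6 kb in mt+, and 9.96 and 14.8 kb in mt-. A locus on the same chromosome from 6022665 to 6090548 held 4 and 5 members, with H3K9me1 over 17% and 42.3% in dnmt1 of mt+ and mt- and 18.5% and 23.1% in set3. On chromosome 6 the locus from 4535887 to 4601547 held 5 and 7 members, and H3K4me3 there went from 3.83 to 8.23 kb in mt+ and from 4.30 to 8.25 kb in mt-. On chromosome 16 from 3391341 to 3560385, H3K4me3 went from 4.48 to 9.54 kb in mt+ and from 4.32 to 9.31 kb in mt-. On chromosome 12 from 6836205 to 6911126 it went from 2.25 to 4.92 kb and from 2.41 to 4.40 kb. At all 4 of these loci, and at the chromosome 3 locus, H3K4me3 and H3K9me3 were longer in dnmt1 than in WT in both strains. On chromosome 15 the locus from 1934532 to 1959394 held 4 and 6 members and showed little change in H3K4me3, with 3.84 kb in WT and 3.97 kb in dnmt1 of mt+ and 4.09 and 3.94 kb in mt-.

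At 8 loci with members of both strains, H3K9me3 was called in dnmt1 of both strains and in WT of neither. Besides the chromosome 13 locus, the longest H3K9me3 stretches in dnmt1 were on chromosome 1 from 1151888 to 1205900, with 2.78 kb in mt+ and 3.31 kb in mt-, and on chromosome 9 from 4322678 to 4372689, with 3.18 and 2.89 kb. The locus on chromosome 2 from 2589395 to 2622713 gained 1.09 and 2.05 kb of H3K9me3. The highest folds of these peaks were 2.13 in mt+ and 2.12 in mt-, below the medians of 3.26 and 3.31 of the dnmt1 H3K9me3 lists. H3K4me3 there was at 0 in WT of both strains and in dnmt1 mt- and at 0.393 kb in dnmt1 mt+. H3K9me1 covered 32.0% of this locus in dnmt1 mt+, 56.0% in dnmt1 mt-, 32.0% in set3 mt+ and 36.7% in the set3 list of mt-. The other loci were on chromosome 1 from 1243681, chromosome 5 from 1644560, chromosome 7 from 3019892 and chromosome 14 from 2247183. Across these 4, H3K9me3 of dnmt1 ranged from 0.370 to 2.25 kb, and H3K4me3 of dnmt1, from 0.904 to 3.96 kb, was longer than in WT in both strains. Of the 8 loci, the one on chromosome 13 alone had no H3K4me3 in any list, and the one on chromosome 2 had it in 1 list. The remaining 6 had H3K4me3 in dnmt1 of both strains.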

How the data were processed

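The authors deposited 1 narrow peak list per ChIP library. The submitters' processing notes name MACS2 2.2.7.1, Bowtie2 2.4.2, Trim Galore 0.6.7, deepTools 3.5.1 and Picard and give no settings here. Each peak has, as the authors deposited it, a display score and a fold enrichment at the summit, which is a linear ratio. It also has a deposited −log10 q-value, a −log10 p-value and the summit position. The lowest −log10 q-value was 2.00, so weaker signal is not listed, and a peak absent from a list is not shown to lack the mark. Input libraries' own files were not analysed here.

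Overlaps needed 1 bp. The end of a chromosome was the farthest peak end in any of the 18 lists. The local background was solved from the fold and p-value, taking the fold as (pileup + 1) / (background + 1), and met the deposited −log10 p-value within 0.002 at 99.6% to 99.97% of the summits in the 6 H3K9me1 lists. The overlap rule and this recovery were tested on simulated data. Depth in reads was not analysed here. Intervals are Wilson for shares and Newcombe for differences, at 95%. Python 3.11.15, numpy 2.4.6, pandas 2.3.3, scipy 1.17.1 and matplotlib 3.10.9 were used.

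The members and lists were chosen with earlier results of these data known. Named loci were the 10 with the most H3K9me1 length in the mutant list that has least, up to 8 with H3K9me3 in dnmt1 of both strains and in WT of neither, and the 5 with the most members, and the text gives those that differ most in their marks with full values. Named members were the 4 per strain with the highest WT fold and the 2 per strain nearest each side of the rule. Loci over 50% in all 4 mutant lists, and the split of member bases by H3K9me1 in the mutants, were chosen after their values were seen. The alternatives were a −log10 q-value of at least 5, an overlap of 50% of the WT peak or of its summit, chromosome ends of 20 or 100 kb, WT peaks under 5 kb, peaks joined over 5 kb, and chromosome 13 left out.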

Additional observations from a re-analysis of the deposited data

How the results depend on the processing

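Of the 98 values recomputed under an alternative, 62 stayed within their interval or, for values without one, within 1.5 times the value of the main setting. Another 36 moved, and none changed direction. That range is wide for the background ratios, which lay near 1, and for percents. In dnmt1 mt-, the share of H3K9me3 without H3K4me3 on bases with H3K9me1 fell from 84.7% to 63.2% without chromosome 13. It still counted as staying. Counts have no direction. Shares of H3K9me3 on member bases with and without H3K9me1 in dnmt1 are not among the 98, and their order in mt- reversed without chromosome 13. The counts of members, given here for mt+ and then mt-, were 98 and 209 with a −log10 q-value of at least 5, 96 and 173 after joining peaks, 68 and 176 under 5 kb, 65 and 179 by the summit, and 20 and 57 when 50% of the WT peak had to be covered. The difference from lost peaks in recurrence in the other strain was 71.6 and 31.7 points under 5 kb, 68.9 and 25.1 by the summit, and 74.4 and 29.8 at 50% covered. The difference for H3K4me3 in dnmt1 was 63.1 and 51.6 points at the stricter q-value, 52.3 in mt- after joining, 20.4 and 16.5 under 5 kb, 42.1 and 35.3 by the summit, and 10.8 and 7.87 at 50% covered, where both intervals (-3.06 to 32.7 and -0.786 to 20.2) include 0. For H3K9me3 in dnmt1 it was 54.7 and 47.4 points at the stricter q-value, 52.5 and 53.4 after joining, 13.3 and 12.5 under 5 kb, 28.3 in mt- by the summit, and 21.6 and 14.6 at 50% covered. H3K4me3 of dnmt1 on member bases with H3K9me1 minus those without it was -7.36 and -6.71 points, and -4.23 and -3.30 points under 5 kb; this value and its alternatives were added after the data were examined. The alternatives under 5 kb and at 50% covered leave mostly narrower peaks, and otherwise the cause was not tested. No paired test was run: paired by strain, the genotypes form 2 pairs, and the smallest two-sided p of an exact paired permutation test is then 0.5. With 1 library per mark, genotype and strain the error between libraries is unknown. Depth limits the absences: a stretch called lost may lie under the threshold of its list.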
